A study of Drosophila melanogaster with 20 samples.

Results

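A set of 215 transcripts was lower in heads of flies with ATM targeted by RNA interference in glia than in their driver controls. It differed little between mutant or knockdown flies and their controls in the 3 other comparisons of the study. The set was cut from 15473 transcripts of adult Drosophila melanogaster heads by 4 differences of genotype means on the log2 scale. A transcript was taken if its mean was at least 0.7 lower in Repo-ATMi than in Repo-GAL4 flies, if both Repo-ATMi arrays lay below both Repo-GAL4 arrays, and if the other 3 experimental genotypes each stayed within 0.5 of their own controls. The members were thus chosen by the measured levels of all 8 genotypes, so the size of the glial fall and the smallness of the other 3 differences are descriptions here and were not tested. The sources used here tie none of the 215 members to a gene, so the members are given by FlyBase transcript number.

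ATM is a protein kinase that is recruited to DNA double-strand breaks and phosphorylates checkpoint and repair proteins, and its loss in people causes ataxia-telangiectasia, a disease with loss of cerebellar neurons. Glia support neurons through transmitter uptake, metabolic supply and the blood-brain barrier, and in the fly they also clear neuronal debris and can release immune peptides. In the GAL4/UAS system a driver line makes the yeast activator GAL4 in chosen cells, and GAL4 switches on a UAS transgene, here one whose RNA triggers degradation of ATM messenger RNA.

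Each sample was total RNA of whole heads on 1 single-colour NimbleGen array, in 8 genotypes. Repo-ATMi flies (genotype Repo-GAL4/UAS-RNAiATM, 2 arrays) carried the glial driver and the RNA interference transgene, and Repo-GAL4 flies (Repo-GAL4/+, 2 arrays) the driver alone. ATM8 flies (2 arrays) were homozygous for ATM8, a temperature-sensitive mutant allele, and ATM8/+ flies (2 arrays) were heterozygous, both in a pp e1 background. Elav-ATMi (Elav-GAL4/+; UAS-RNAiATM/+, 4 arrays) was set against Elav-GAL4 (4 arrays), and ElavC155-ATMi (ElavC155-GAL4/+; UAS-RNAiATM/+, 2 arrays) against ElavC155-GAL4 (2 arrays), both with a neuronal driver. All driver genotypes were in the w1118 background, were kept at 25°C and were 4 to 6 days old, whereas the ATM8 genotypes were reared at 18°C. All flies were collected 0 to 3 days after eclosion and then held at 25°C for 3 days. No control carried the UAS transgene without a driver, so the transgene and the knockdown go together in each pair. In whole-head RNA, fewer glia and less RNA per glial cell cannot be told apart. The level of the ATM gene itself and the markers of glia, neurons and other head cells could not be matched to rows and are not analysed here, so neither the knockdown nor the tissue label was checked.

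Levels are the authors' RMA values on a log2 scale, where 1 unit is a 2-fold step. The 8 Repo and ATM8 arrays had a median level of 10.45 to 10.63 and the 12 Elav and ElavC155 arrays one of 10.84 to 10.93. Levels are therefore compared within these 2 sets of arrays, and across the sets they are only set side by side.

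Of all transcripts, 441 were at least 0.7 lower in Repo-ATMi than in Repo-GAL4, and in 421 of these the 4 Repo arrays did not overlap. The bounds on the other 3 comparisons then left 215. Of the transcripts they removed, 115 were out of bounds in the Elav pair, 71 in the ElavC155 pair and 77 in the ATM8 pair, with 157 out in 1 pair, 41 in 2 and 8 in 3. The same rule with the sign turned would take 292 rises. The glial fall of the members had a median of -0.84 (log2, quartiles -0.99 and -0.75, with -0.02 over all transcripts). It lay between -1 and -0.7 for 162 members, between -1.5 and -1 for 40, between -2 and -1.5 for 9 and at or below -2 for 4. The gap between the lower Repo-GAL4 and the higher Repo-ATMi array had a median of 0.56, was at least 0.5 in 137 members and was under 0.1 in 5. limma, a linear model fitted to all 20 arrays with the spread of each transcript moderated by that of the others, called 98 of the 215 members lower at an adjusted p under 0.05. Of all transcripts 1.34% were called lower. This contrast chose the members, and the count is no evidence about them.

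The deepest fall was that of FBtr0079509, with 8.19 and 7.51 in Repo-ATMi heads against 11.37 and 11.31 in Repo-GAL4 heads. The 2 knockdown arrays differed from each other by more than the controls did but lay far under both, and the difference of the means was -3.49 ± 0.28 (SE), or 11.2-fold. In the ATM8 pair the transcript had 10.94 and 10.96 in homozygotes against 11.23 and 11.13 in heterozygotes, close to the level of Repo-GAL4. The Elav-ATMi arrays had 10.25, 10.17, 9.46 and 10.04, against 10.61, 9.75, 10.15 and 10.39 in Elav-GAL4. The ElavC155-ATMi arrays had 11.90 and 12.00, against 11.44 and 11.68 in ElavC155-GAL4. The knockdown and control arrays thus overlapped with Elav, and with ElavC155 the knockdown arrays lay slightly above their controls.

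The next deepest, FBtr0071821, had 8.42 and 8.23 in Repo-ATMi against 11.16 and 11.24 in Repo-GAL4, a difference of -2.88 ± 0.15 (SE), or 7.34-fold. Its level varied little elsewhere: 10.83 and 10.98 in ATM8 against 10.87 and 10.87 in ATM8/+, and 11.10 and 11.08 in ElavC155-ATMi against 11.18 and 11.09 in ElavC155-GAL4. The Elav-ATMi arrays ran from 11.34 to 11.66 and the Elav-GAL4 arrays from 11.43 to 11.85. The 2 Repo-ATMi arrays were the lowest of the 20 by more than 2 log2 units.

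The members at both ends of the level range met the rule as well. FBtr0077011 and FBtr0077012 were the brightest. FBtr0077011 had 12.43 and 12.14 in Repo-ATMi against 13.96 and 14.02 in Repo-GAL4, and FBtr0077012 had 12.74 and 12.55 against 14.19 and 14.11. Their falls were -1.71 ± 0.18 and -1.50 ± 0.14 (SE). These 2 identifiers are consecutive numbers, and their levels over the 20 arrays correlated at r = 0.876. In all, 6 pairs of members had consecutive numbers, with correlations from 0.133 to 0.876. The sources used here do not say whether such a pair shares a gene or probes, so the 215 members may stand for fewer genes. The dimmest member, FBtr0082905, had 5.85 and 6.55 in Repo-ATMi against 6.98 and 7.26 in Repo-GAL4. The next, FBtr0078467, had 5.87 and 5.93 against 6.42 and 6.81. RMA values carry no detection flag, so a fall at such levels has no measured floor.

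At the edge of the rule, FBtr0084986 and FBtr0078291 were just inside, with falls of -0.70 each. FBtr0084986 had 7.23 and 6.88 in Repo-ATMi against 7.92 and 7.60 in Repo-GAL4, and FBtr0078291 had 7.56 and 7.62 against 8.43 and 8.15. FBtr0076992 and FBtr0071134 met every other criterion and were just outside at -0.698 each. FBtr0076992 had 6.80 and 7.07 in Repo-ATMi against 7.66 and 7.60 in Repo-GAL4, and FBtr0071134 had 12.11 and 12.06 against 12.82 and 12.74. The falls of these 4 transcripts were alike, and only the cutoff put them on different sides.

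**Figure D1:**
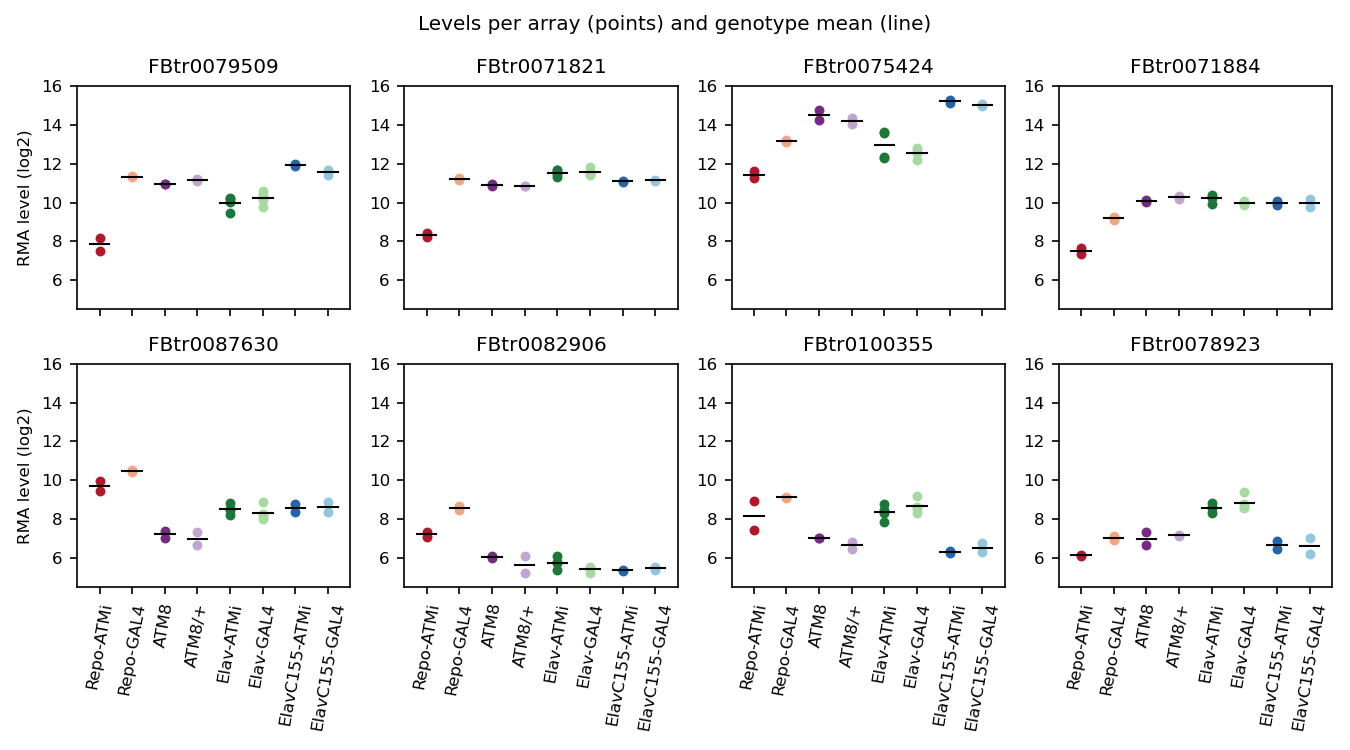
RMA level (log2, vertical axis) of 8 members in each of the 20 arrays (points, by genotype along the horizontal axis), with genotype means as lines. Repo-ATMi lies below Repo-GAL4 in all 8 panels, by -3.49 for FBtr0079509 and by -0.76 for FBtr0087630, while the levels in the other lines lie above, between or below the Repo levels.

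The members were mostly of middling level. With all transcripts split into 4 bins of equal size by mean level over the 20 arrays, 40 members fell in the lowest bin, 92 in the second, 49 in the third and 34 in the highest. The members also varied more between replicate arrays than other transcripts did. A cutoff on a difference of means favours transcripts with a large spread, so this is a description and not a trait found apart from the rule. Their residual SD within genotypes had a median of 0.28, against 0.19 over all transcripts. Within each bin the members' median was the larger, at 0.327 against 0.252 in the lowest, 0.313 against 0.235 in the second, 0.199 against 0.173 in the third and 0.175 against 0.151 in the highest bin. The members' spread was thus the larger in all 4 bins.

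Per array, the median level of the 215 members was 9.10 and 9.44 in Repo-ATMi, against 10.31 and 10.07 in Repo-GAL4. It was 9.85 and 9.98 in ATM8, against 9.85 and 10.10 in ATM8/+. In the other set of arrays it was 10.26, 10.27, 10.07 and 10.08 in Elav-ATMi, against 10.22, 10.50, 10.39 and 10.43 in Elav-GAL4. It was 10.14 and 9.87 in ElavC155-ATMi, against 10.15 and 9.66 in ElavC155-GAL4. The Repo-ATMi arrays had the lowest medians of all 20 arrays, as the rule makes likely, and the ElavC155 arrays numbered 2 were the lowest of their own set.

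**Figure D2:**
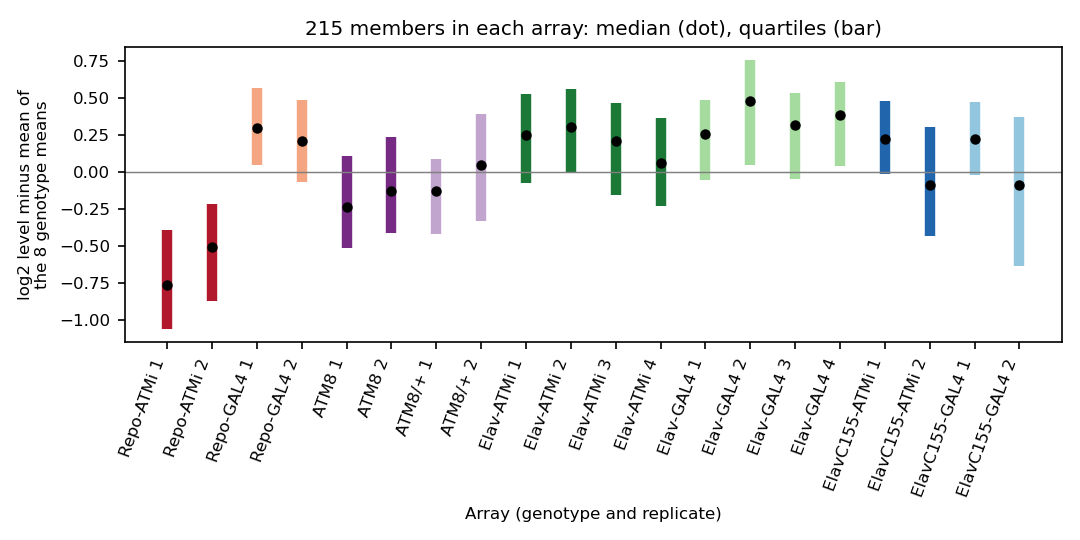
Level of the 215 members in each of 20 arrays (horizontal axis), as the log2 difference from each member's mean over the 8 genotypes (vertical axis); dots are medians over members and bars span the quartiles. The medians of the 2 Repo-ATMi arrays are -0.76 and -0.51, and those of the ElavC155 arrays numbered 2 lie at -0.09, below the 0.22 of the arrays numbered 1.

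The rule on the other 3 comparisons bounded the size of the differences but not their sign. In Elav-ATMi, 156 of 215 members had a lower mean than in Elav-GAL4 (72.6%, against 53.1% of all transcripts and 54.0% of the 12747 transcripts within the same bounds), with a median difference of -0.13. In ATM8 flies, 142 had a lower mean than in ATM8/+ (66.0%, against 49.4% of all and 50.0% of those within bounds), with a median of -0.10. The ATM8 count rested on single arrays: it was 118 (54.9%) when ATM8 replicate 1 was left out and 113 (52.6%) when ATM8/+ replicate 2 was. The Elav count ran from 132 to 164 with any 1 array left out. In ElavC155-ATMi, 95 had a lower mean than in ElavC155-GAL4 (44.2%, against 48.7% of all and 49.6% of those within bounds), with a median of 0.03. All 4 Elav-ATMi arrays lay below all 4 Elav-GAL4 arrays for 12 members (5.58%, against 2.70% of all transcripts), and the reverse held for 0 members (2.31% of all). The ElavC155 count of 95 also rested on single arrays: it was 152 when the first ElavC155-ATMi array was left out and 160 when ElavC155-GAL4 replicate 2 was. After adjustment limma called 0 members in the Elav pair (1.62% of all transcripts), 0 in the ElavC155 pair (0.504%) and 0 in the ATM8 pair (1.59%), as the bounds make likely. At an unadjusted limma p under 0.05, in either direction, there were 21 members in the Elav pair (9.16% of all transcripts), 6 in the ElavC155 pair (6.32%) and 10 in the ATM8 pair (13.4%). Of the 21, 19 were lower, a direction for which no share over all transcripts was computed. The rule bounded all 3 differences, so these counts are descriptions and no test of the members.

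The Repo-ATMi and Repo-GAL4 levels of the members were set against the ATM8 and ATM8/+ arrays, the only others in the same set. The flies on these arrays differ from the Repo lines in driver, genetic background and rearing temperature, so they are no neutral baseline. Both Repo-ATMi arrays lay below all 4 of these arrays for 121 members (56.3%, against 25.0% of all transcripts), and both Repo-GAL4 arrays lay above all 4 for 99 (46.0%, against 23.6%). Only the first held for 95 members (24.5% of all transcripts), only the second for 73 (23.0%), both for 26 (0.517%) and neither for 21 (52.0%). The rule favours both outcomes, so these are descriptions. The order of the 2 counts depended on scaling: they were 104 and 106 after quantile normalization over the 20 arrays, and 97 and 116 with each array centred on its median. On this measure the set holds members with Repo-ATMi below the ATM8 lines, members with Repo-GAL4 above them, members with both and members with neither. Whether a member was low with the glial knockdown or high in the glial driver control cannot be told from this.

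The mean of the 4 Repo arrays minus the mean of the 4 ATM8 and ATM8/+ arrays does not depend on the glial difference, since Repo-ATMi and Repo-GAL4 enter it with equal weight, and could be tested. The Repo lines were higher for 38 members (17.7%, against 18.0% of all 15473 transcripts) and lower for 54 (25.1%, against 22.4%) in limma at an adjusted p under 0.05. These counts were near the shares over all transcripts. The median difference of the members was -0.11 (quartiles -0.48 and 0.28), against -0.03 over all transcripts. At least a 2-fold difference was measured for 18 of the 38 (47.4%, against 21.5% of the higher calls over all transcripts) and for 15 of the 54 (27.8%, against 16.2% of the lower calls). The residual SD of the members was larger (median 0.28, against 0.19), and a larger spread asks for a larger difference to be called. The 2-fold shares are therefore descriptions. Driver, genetic background and rearing temperature differ together between these lines and cannot be told apart. With each array centred on its median, which moved the median of all transcripts to 0.10, 54 members were higher and 41 lower. Leaving out the dimmest 25% of transcripts kept 175 of the 215 members, of which 20 were higher and 56 lower. Calls over all transcripts, in either direction, numbered 6417 with centring and 5084 with the filter, against 6256 in the main fit.

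FBtr0087630 stood highest in the Repo lines, with 9.97 and 9.43 in Repo-ATMi and 10.40 and 10.52 in Repo-GAL4, against 7.01 and 7.40 in ATM8 and 7.32 and 6.66 in ATM8/+. The line difference was 2.98 ± 0.22 (SE, limma adjusted p = 6.35e-08), several times the glial fall of -0.76. All neuronal driver arrays ran from 8.00 to 8.89. FBtr0082906 had 7.35 and 7.09 in Repo-ATMi and 8.48 and 8.65 in Repo-GAL4, against 5.99 and 6.11 in ATM8 and 6.08 and 5.21 in ATM8/+. Its line difference was 2.05 ± 0.17 (limma adjusted p = 2.27e-07), and all 12 Elav and ElavC155 arrays lay between 5.20 and 6.08. Outside the Repo lines its levels were thus like those of the dimmest members, where a fall has no measured floor. In both transcripts the Repo-ATMi level was thus above that of the ATM8 lines, and the Repo-GAL4 level higher still.

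FBtr0075424 and FBtr0071884 stood lowest in the Repo lines. FBtr0075424 had 11.60 and 11.28 in Repo-ATMi and 13.22 and 13.11 in Repo-GAL4, against 14.27 and 14.77 in ATM8 and 14.35 and 14.06 in ATM8/+. The line difference was -2.06 ± 0.27 (SE, limma adjusted p = 2.54e-05). FBtr0071884 had 7.34 and 7.65 in Repo-ATMi and 9.25 and 9.12 in Repo-GAL4, against 10.01 and 10.13 in ATM8 and 10.35 and 10.19 in ATM8/+, a line difference of -1.83 ± 0.12 (limma adjusted p = 1.53e-08). Here the glial driver control was already below the ATM8 lines and the knockdown lower again. FBtr0071884 lay between 9.77 and 10.38 in all 12 Elav and ElavC155 arrays.

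**Figure D3:**
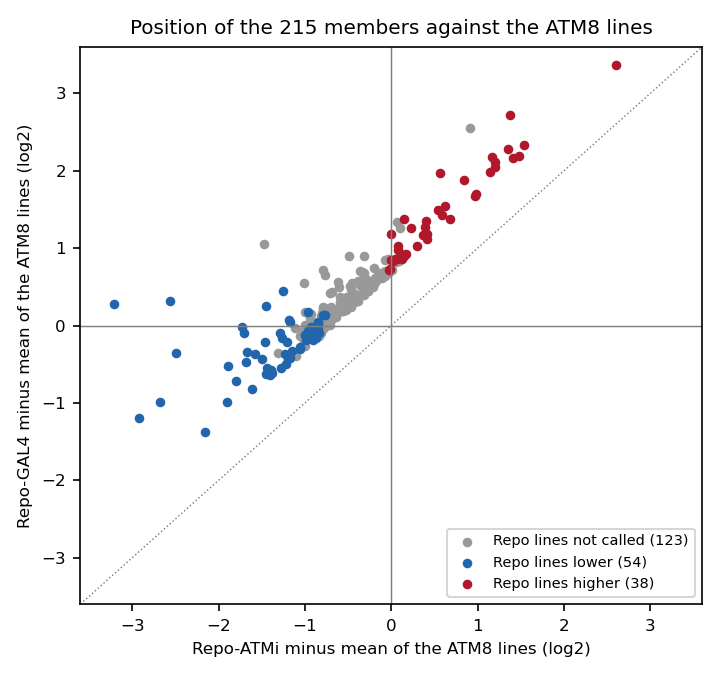
Each of 215 members by its Repo-ATMi mean (horizontal) and its Repo-GAL4 mean (vertical), both minus the mean of the 4 ATM8 and ATM8/+ arrays (log2); colours give the limma call of the Repo lines against the ATM8 lines. All points lie above the dotted line of equal values because the rule asked for it; 38 members were called higher and 54 lower, and 123 were not called.

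The Elav lines could be set against the ElavC155 lines in the same way, as the mean of 8 Elav arrays minus that of 4 ElavC155 arrays. Each knockdown and its control enter with equal weight. Deviations of same-numbered ElavC155 arrays correlated at 0.509, and a shift shared by such arrays cancels in the ElavC155 knockdown difference but enters this contrast. The 299 transcripts with such a shift, described below, had a median glial difference of -0.47, so the counts are not independent of the rule. By their labels these lines share background, rearing temperature and array set and differ in the driver insertion. The labels do not say how the flies of each line were raised, so other differences cannot be told apart from the driver. The Elav lines were higher for 69 members (32.1%, against 19.6% of all transcripts) and lower for 31 (14.4%, against 18.2%) in limma at an adjusted p under 0.05. The median difference of the members was 0.18 (quartiles -0.17 and 0.55), against 0.01 over all transcripts. The count of 69 became 41 when ElavC155-ATMi replicate 2 was left out and 40 when ElavC155-GAL4 replicate 2 was. The calls over all transcripts, in either direction, fell as well, from 5855 to 4150 and 4316. The lower calls among members numbered 28 to 34 with any 1 array left out. With the dimmest 25% of transcripts left out they numbered 18 among the 175 members kept. Of the members, 48 were called in both line contrasts (22.3%, against 17.1% of all transcripts). Of these, 20 were lower in the Repo and higher in the Elav lines, 15 the reverse, 7 higher in both and 6 lower in both. The shares of these combinations over all transcripts were not computed, so the split is not read as a trait of the members.

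FBtr0100355 stood highest in the Elav lines. It had 8.80, 8.45, 8.32 and 7.87 in Elav-ATMi and 9.17, 8.60, 8.29 and 8.54 in Elav-GAL4, against 6.35 and 6.25 in ElavC155-ATMi and 6.32 and 6.75 in ElavC155-GAL4. The line groups did not overlap, and the difference was 2.09 ± 0.23 (SE, limma adjusted p = 8.35e-06). Its membership rested on 1 array, since Repo-ATMi had 8.94 and 7.42 against 9.15 and 9.08 in Repo-GAL4. FBtr0078923 had 8.56, 8.81, 8.62 and 8.30 in Elav-ATMi and 8.75, 9.37, 8.55 and 8.61 in Elav-GAL4, against 6.87 and 6.44 in ElavC155-ATMi and 7.01 and 6.22 in ElavC155-GAL4. Its difference was 2.06 ± 0.18 (limma adjusted p = 6.59e-07).

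FBtr0075424 was the lowest in the Elav lines as well, with 12.37, 12.27, 13.65 and 13.57 in Elav-ATMi and 12.18, 12.54, 12.79 and 12.68 in Elav-GAL4, against 15.30 and 15.13 in ElavC155-ATMi and 15.08 and 14.98 in ElavC155-GAL4. The difference was -2.37 ± 0.23 (SE, limma adjusted p = 2.17e-06). FBtr0079509, the member with the deepest glial fall, was also lower in the Elav lines, by -1.65 ± 0.17 (limma adjusted p = 3.25e-06). Its level thus differed between neuronal driver lines by more than it did within either of them.

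**Figure D4:**
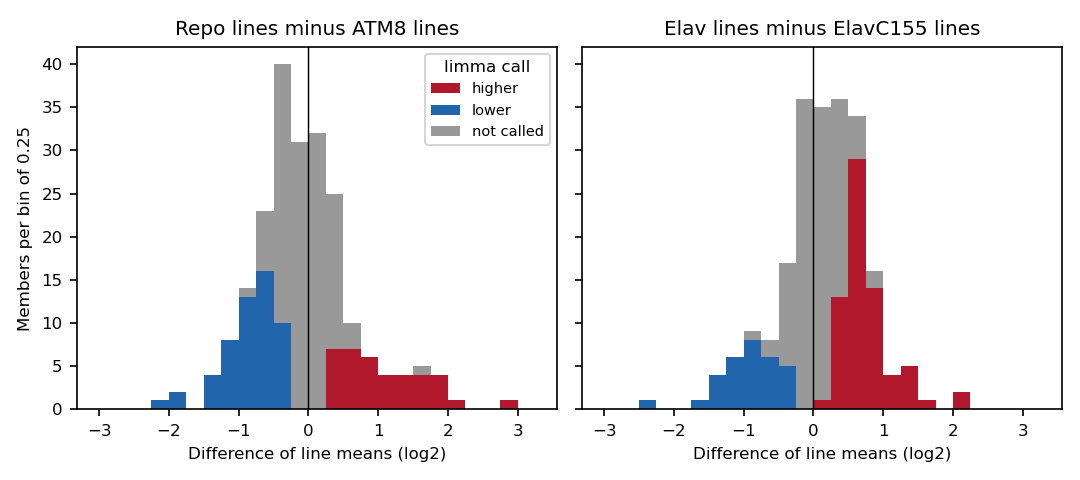
Number of members (vertical axis, bins of 0.25) by the difference between line means on the log2 scale (horizontal axis), for the Repo lines minus the ATM8 lines (left) and the Elav lines minus the ElavC155 lines (right); colours give the limma call. The left panel holds 38 higher and 54 lower calls, the right panel 69 higher and 31 lower calls.

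Part of the set also differed between replicate arrays of a single genotype, by as much as it fell with the glial knockdown. In both ElavC155 genotypes, 35 members (16.3%) were at least 0.7 lower on the array numbered 2 than on the array numbered 1, against 1.93% of all transcripts, and the reverse held for 0 members, against 0.149% of all. This split was found after the values had been seen, and it is described without a test. The 35 had a median of 10.12 and 9.12 on the 2 ElavC155-ATMi arrays and 10.03 and 8.91 on the 2 ElavC155-GAL4 arrays. Their medians in the Repo pair were 8.89 and 9.61 in Repo-ATMi, against 10.35 and 10.01 in Repo-GAL4. Replicates of other genotypes differed on these transcripts too. Of the 35, 32 were higher in Repo-GAL4 replicate 1 than 2 (46.8% of all transcripts), 5 in Repo-ATMi replicate 1 than 2 (52.1%), and 0 in ATM8/+ replicate 1 than 2 (51.2%). Among all transcripts low on both ElavC155 arrays numbered 2, members or not, these shares were 88.3%, 15.4% and 4.68%, so the pattern was not particular to members.

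Of all 299 transcripts that were low on both ElavC155 arrays numbered 2, 268 had a lower mean in Repo-ATMi than in Repo-GAL4 (89.6%, against 52.1% of all transcripts), 75 of them by at least 0.7 (25.1%, against 2.85%), with a median of -0.47. Of the 23 that were high on both of these arrays, 5 had a lower mean in Repo-ATMi, and the median was 0.73. The ElavC155 and Repo comparisons share no arrays. The part of this variation in the glial difference was not tested. Of the 180 other members, 52 were called higher and 31 lower in the Elav than in the ElavC155 lines. Of the 35, 17 were called higher and 0 lower, with 19.6% and 18.2% over all transcripts. The 35 were chosen on the ElavC155 arrays that enter this contrast, so their counts are descriptions. The median line difference was 0.61 for the 35 and also 0.61 for all 299 transcripts. FBtr0075317, chosen for its fall among the 35 after its values were seen, had 6.38 and 6.70 in Repo-ATMi against 8.14 and 7.66 in Repo-GAL4. It had 8.03 and 6.53 in ElavC155-ATMi against 7.98 and 6.07 in ElavC155-GAL4, so that both neuronal genotypes held 1 array near the level of Repo-GAL4 and 1 near that of Repo-ATMi.

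**Figure D5:**
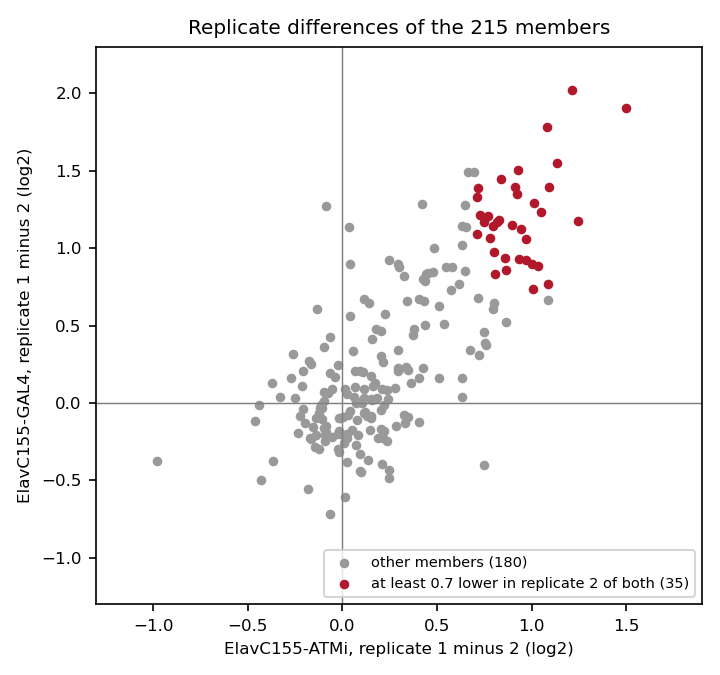
Difference between the 2 replicate arrays (replicate 1 minus replicate 2, log2) of each of 215 members in ElavC155-ATMi (horizontal axis) and ElavC155-GAL4 (vertical axis). The 35 members at least 0.7 lower on replicate 2 of both genotypes are coloured; 0 members lie at the opposite corner.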

How the data were processed

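The deposited values are log2 RMA levels, 1 per FlyBase transcript and array; RMA is named per the submitters' processing notes, with no version. The log2 scale was inferred from their range. The annotation release, the probe filter and whether the 20 arrays were normalized together are not stated in the sources used here. Of the 15473 transcripts, 44 matched the RefSeq gene table (Release 6), 17 of them 1 gene, and 0 members matched, so the gene lists that had been written down could not be used. The members, lists and tests were chosen with earlier results of these data known.

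Each transcript was fitted with limma 3.58.1 in R 4.3.3 (a mean for each of 8 genotypes over 20 arrays, eBayes without trend, 12 residual degrees of freedom, two-sided), with Benjamini-Hochberg adjustment over all transcripts. The 2 line contrasts were tested; the 4 contrasts of the rule were described. The procedure was tested on simulated data whose noise was independent between arrays. That simulation does not cover the correlation of same-numbered arrays given below. Named transcripts are the 2 deepest falls, the 2 highest and 2 lowest called in each line contrast, the 2 on either side of the cutoff, and the 2 brightest and 2 dimmest. The labels call the replicates biological without saying how they were raised, so the p-values cover only the spread among these arrays, whose number limits the precision. Deviations of same-numbered arrays from their genotype means correlated at 0.509 in the ElavC155 pair, 0.262 in the ATM8 pair, 0.119 to 0.243 in the Elav pair and -0.14 in the Repo pair. Alternatives were quantile normalization, centring, a filter on dim transcripts, a replicate block, array weights, trended and robust eBayes, fits of the compared lines alone, other cutoffs and leaving out each array.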

Additional observations from a re-analysis of the deposited data

Results flagged for a closer look

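In the Elav genotypes, which have 4 arrays each, 28 groups of values of the named members were searched for a single array standing apart by Dixon's criterion for 4 values, a gap over 0.829 of the range. Chance puts about 5% of groups past it, and 4 of the 28 passed. FBtr0084986 had 7.31 in Elav-ATMi replicate 4, below 7.64 to 7.67 in the other arrays. FBtr0071821 had 11.85 in Elav-GAL4 replicate 2, above 11.43 to 11.50 in the others. FBtr0082906 had 5.20 in Elav-GAL4 replicate 1, below 5.50 to 5.55. FBtr0077012 had 14.65 in Elav-GAL4 replicate 4, above 14.44 to 14.46.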

How the results depend on the processing

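The number of members depended most on the cutoff and on the Repo arrays. It was 341 at a cutoff of -0.6, 131 at -0.8, 165 and 261 with bounds of 0.4 and 0.6, 246 after quantile normalization (203 of the 215 kept) and 225 after centring (205 kept). With 1 array left out it ran from 160 (without ElavC155-GAL4 replicate 1) to 428 (without Repo-ATMi replicate 2, with 182 of the 215 kept), and without Repo-ATMi replicate 1 it was 237, with 126 kept. The median glial fall of the 215 ran from -0.97 to -0.76 with 1 array left out. The filter on the dimmest 25% of transcripts kept 175 of the 215 members. Members higher in the Repo than in the ATM8 lines numbered 31 to 40 with 1 array left out, and members lower 43 to 57. With the filter, 20 of the 175 were higher. Members higher in the Elav than in the ElavC155 lines numbered 40 to 75 with 1 array left out, and members lower 28 to 34, or 18 without the dimmest 25%. With the replicate number as a block these 4 counts were 40, 56, 70 and 32. The block fits a replicate shift shared by all genotypes. For the 35 members low on both ElavC155 arrays numbered 2, the median of replicate 1 minus 2 was 0.92 in ElavC155-ATMi and -0.58 in ATM8/+. A shared block cannot remove differences of opposite sign. Counts over the signs of the smaller differences, added after the data were seen, ran from 132 to 164 for Elav, 113 to 154 for ATM8 and 77 to 160 for ElavC155 with 1 array left out. The 35 members low on both ElavC155 arrays numbered 2 became 53 at a difference of 0.5 and 8 at 1, 29 after quantile normalization and 31 after centring. The named line differences stayed past the threshold in all 27 settings run for each. The cause of these shifts was not tested.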
